A study of Mus musculus with 16 samples.

Results

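DUX is a transcription factor that switches on a burst of genes when the mouse embryo first transcribes its own genome at the 2-cell stage. Described here are 10 genes of that programme outside the Zscan4 cluster, out of 56941 gene entries in the table. They were taken by name through their Ensembl identifiers and not by a cutoff on their values. Earlier results of these data were known when they were chosen, so the choice was not blind to them. They are Duxf3 (the Dux gene), its activators Dppa2 and Dppa4, the 2-cell genes Zfp352, Tcstv1, Tcstv3, Usp17la, Usp17lc and Usp17le, and Pramel7, a gene of the PRAME-like family. All 10 matched exactly 1 entry, and all 10 had enough reads to be tested.

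In an ES cell culture a small and changing fraction of cells enters a 2-cell-like state, in which DUX binds regulatory sites that include the long terminal repeats of the endogenous retrovirus MERVL. Genes near such repeats, and MERVL itself, are then transcribed. DPPA2 and DPPA4 are partner proteins that bind chromatin, and ES cells need them to activate Dux.

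The study sequenced chromatin-associated RNA from E14TG2a, a male mouse embryonic stem cell line, made to express 1 of 4 histone demethylases ectopically. KDM4A and KDM4B remove methyl groups from H3K9 and H3K36, and KDM6A (also called UTX) and KDM6B remove them from H3K27. Each enzyme came in a full-length form and in a form lacking an intrinsically disordered region (IDR), a stretch of protein with no fixed fold. Every combination of enzyme and form has 2 libraries, 16 libraries in 8 groups. The cells were all kept in LIF with the inhibitors PD0325901 and CHIR99021. Every group carried a construct, so each deletion was compared with the full-length form of the same enzyme and not with unmodified cells. Sample titles call the deleted form del-cIDR and other fields call it del-IDR, and neither gives the residues removed. The labels do not state whether paired libraries stem from different cultures, so p-values measure only the spread between these libraries, which may be technical.

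Libraries held 32739117 to 54890756 reads on genes. The ES cell genes Pou5f1, Sox2 and Nanog were well expressed in every group, at group means of 53.8 to 227 CPM for Pou5f1, 79.4 to 116 CPM for Sox2 and 106 to 224 CPM for Nanog (CPM, the counts-per-million value of gene reads after TMM scaling). Kdm6a stood at 433 ± 11.3 and 425 ± 14 CPM (SD, n = 2) with the full-length and deleted KDM6A constructs, against 95.7 to 151 CPM in the other groups. The other constructs did not stand out in this way: Kdm4a was at 211 and 296 CPM with its own constructs and at 171 to 262 CPM elsewhere. Kdm4b was at 95.5 and 88.9 CPM with its own constructs and 76.4 to 99.1 CPM elsewhere, and Kdm6b at 81.6 and 94.7 CPM against 69.6 to 76.1 CPM elsewhere. Only for KDM6A did the reads thus check the labels clearly.

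Upstream sequence was at hand for 5 of the 10 genes, from RefSeq on GRCm38.p6. The first stretch is shown because an ERVL copy, the repeat family that holds MERVL, covers the start of Zfp352 in the deposited repeat table. It is the 250 bases before the RefSeq start of Zfp352, at chr4:90218570-90218819 on the plus strand. The ERVL copy lies on both sides of the annotated start (copy at chr4:90106944-90107317, start at 90107057, GRCm39). Whether the capitals below fall within that copy was not tested. Capitals mark each exact match to GACAACACAC, the most frequent word of 10 letters in this window.
Zfp352: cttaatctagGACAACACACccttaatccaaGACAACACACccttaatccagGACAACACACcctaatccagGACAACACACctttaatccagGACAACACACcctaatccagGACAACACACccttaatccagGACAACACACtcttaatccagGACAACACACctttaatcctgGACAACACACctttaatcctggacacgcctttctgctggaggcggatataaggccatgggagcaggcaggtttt
The word occurred 9 times. Of 32851 upstream windows of 250 bases, 14 (0.0426%) held it at all on either strand. Only 1 held it 6 or more times, and that is the window of Zfp352 itself. Because the word was chosen from this window, the counts do not test how unusual it is.

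The next pair is shown because Usp17la and Usp17lc, at separate places on chromosome 7, belong to a family of close copies whose counts are uncertain, and the windows show how alike this pair is upstream. The windows are chr7:104856766-104857015 and chr7:103416446-103416695, both on the plus strand. Capitals mark bases with no identical partner in the other gene, the unaligned ends included.
Usp17la: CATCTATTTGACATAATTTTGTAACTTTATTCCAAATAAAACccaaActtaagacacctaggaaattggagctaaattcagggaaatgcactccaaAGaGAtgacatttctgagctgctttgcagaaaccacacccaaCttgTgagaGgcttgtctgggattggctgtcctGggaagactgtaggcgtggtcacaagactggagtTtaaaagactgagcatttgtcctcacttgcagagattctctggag
Usp17lc: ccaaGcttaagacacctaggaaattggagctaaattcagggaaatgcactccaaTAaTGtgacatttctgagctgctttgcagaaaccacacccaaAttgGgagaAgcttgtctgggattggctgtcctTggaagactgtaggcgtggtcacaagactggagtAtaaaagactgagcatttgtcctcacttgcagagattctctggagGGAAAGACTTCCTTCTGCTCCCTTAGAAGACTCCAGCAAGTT
The 2 windows aligned over 208 bases, of which 198 (95.2%) were identical.

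The 10 genes span a wide range of levels. Per kilobase of exon, the median over 16 libraries was 40.4 RPKM (CPM divided by length) for Dppa4 and 15.7 RPKM for Dppa2. Usp17le, Usp17lc, Pramel7, Tcstv3 and Usp17la followed at medians of 7.84, 6.39, 5.12, 3.95 and 2.86 RPKM. Zfp352 had a median of 0.948 RPKM, and Tcstv1 and Duxf3 were lowest at 0.194 and 0.188 RPKM. For Duxf3 that was 11 to 57 reads in a library and for Tcstv1 2 to 33 reads, so both are measured far less precisely than the others.

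**Figure D1:**
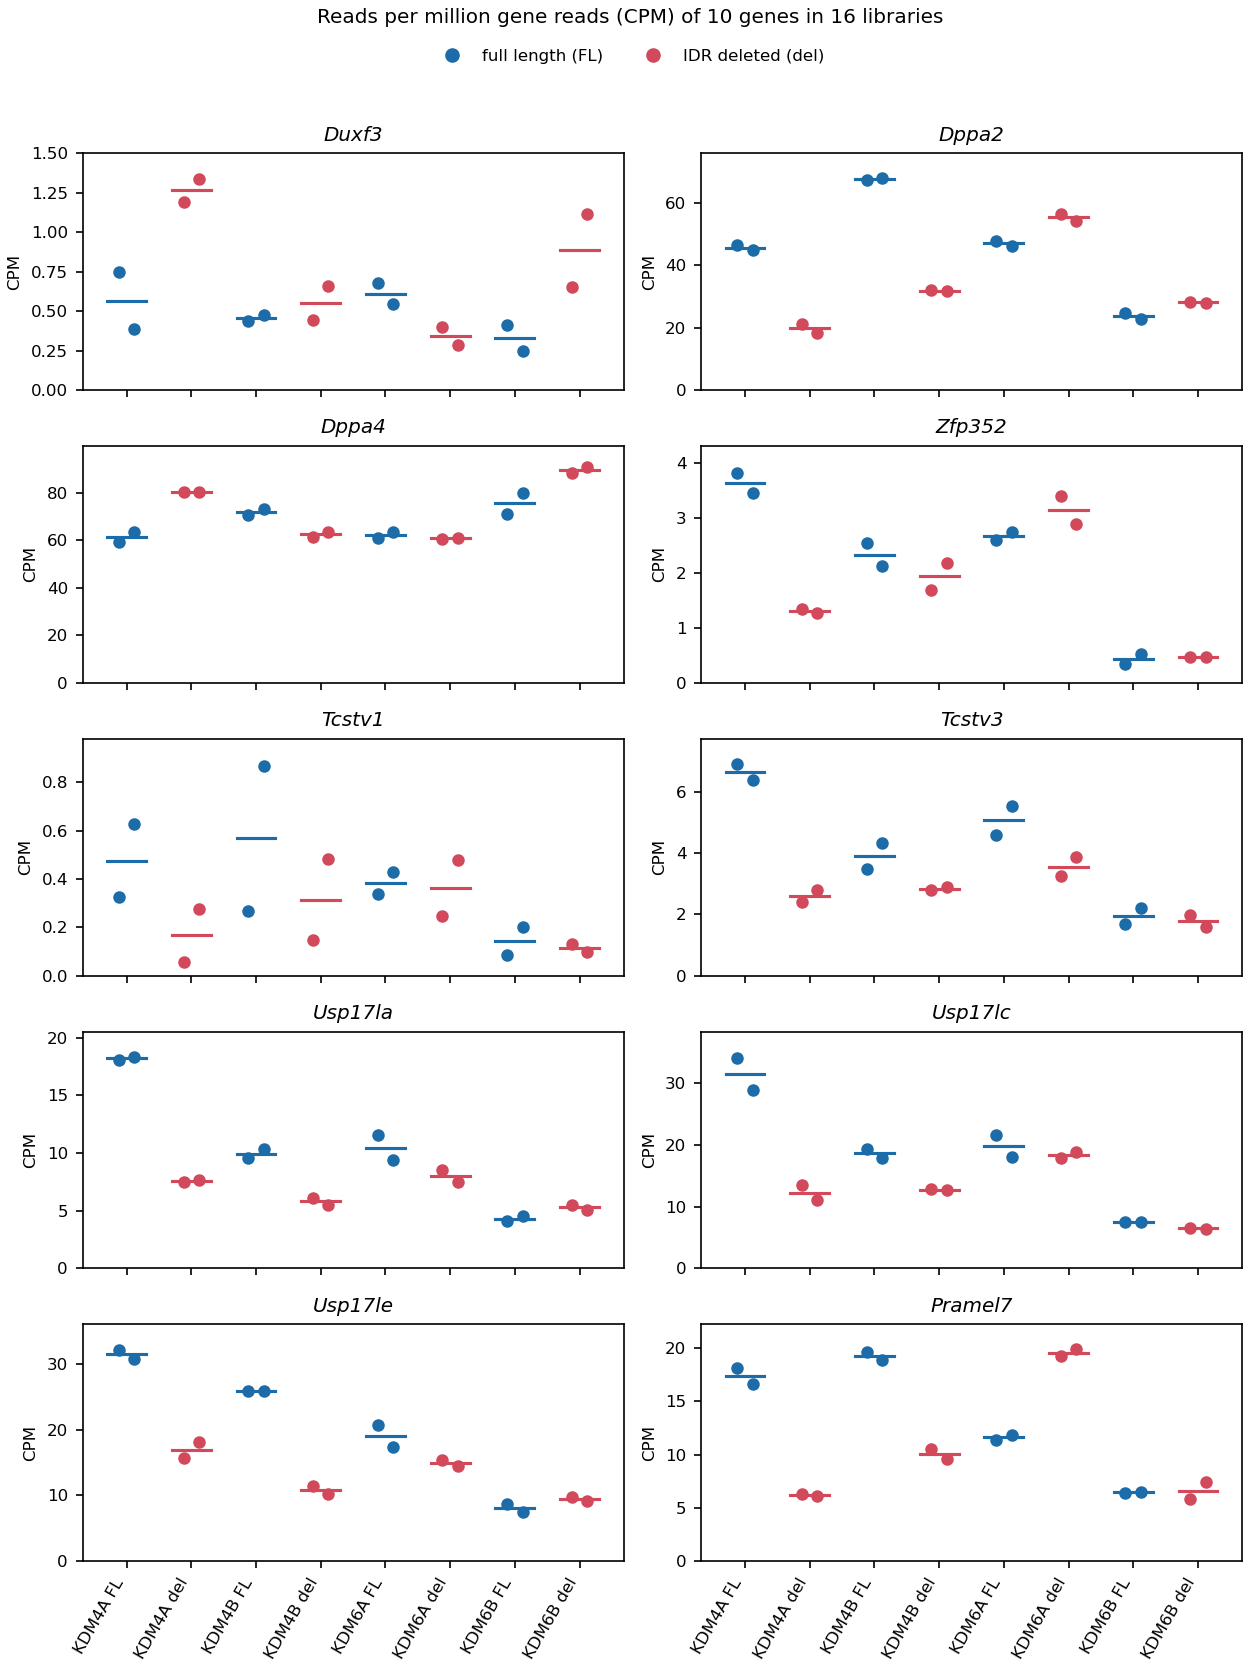
CPM of each gene (vertical axis, linear from 0) in the 16 libraries, by group (horizontal axis); points are libraries, bars are means of 2, blue is full length and red is IDR deleted. For 5 genes the highest mean is in full-length KDM4A, and for 7 genes the lowest mean is in one of the KDM6B groups.

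In the text that follows, values are CPM unless stated, fold changes are on the log2 scale with a standard error, and "rose" and "fell" mean that the IDR-deleted group was higher or lower at an adjusted p under 0.05 (edgeR, adjusted over 31057 genes). All 10 genes differed somewhere among the 8 groups by the joint test, as did 75.8% of all genes tested. Loss of the KDM4A IDR moved 9 of the 10 (2 up, 7 down), where 50.5% of all genes passed the test, 24.6% up and 25.9% down. Loss of the KDM4B IDR moved 6, all of them down, where 36.2% of all genes passed, 18.6% up and 17.6% down. For KDM6A 4 passed (2 up, 2 down) against 17% of all genes, 8.3% up and 8.65% down. For KDM6B 3 passed, all up, against 20.6% of all genes, 9.89% up and 10.7% down. The median log2 fold change of the 10 was -1.31 for KDM4A, -0.66 for KDM4B, -0.09 for KDM6A and 0.17 for KDM6B. Over all genes tested the medians were -0.05, 0.01, 0.00 and 0.00.

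Scaling by the ERCC spike-in RNAs, which made up 0.578% to 1.53% of reads, moved the median of all genes to -0.70, -0.18, -0.21 and -0.38 in the same order. Under it 0 of the 10 rose and 9 fell for KDM4A, and 0 rose and 7 fell for KDM4B. For KDM6A 1 rose and 5 fell, and for KDM6B 0 rose and 3 fell. Of all 31057 genes, 1464 rose and 17766 fell for KDM4A with this scaling, and 2876 rose and 8573 fell for KDM4B. For KDM6A 443 of all genes rose and 7140 fell, and for KDM6B 661 rose and 13293 fell. How the spike-ins were added is not given in the sources used here. In RNA from many cells, fewer 2-cell-like cells, less RNA per such cell and a change in the other ES cells cannot be told apart. This holds for all changes below.

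**Figure D2:**
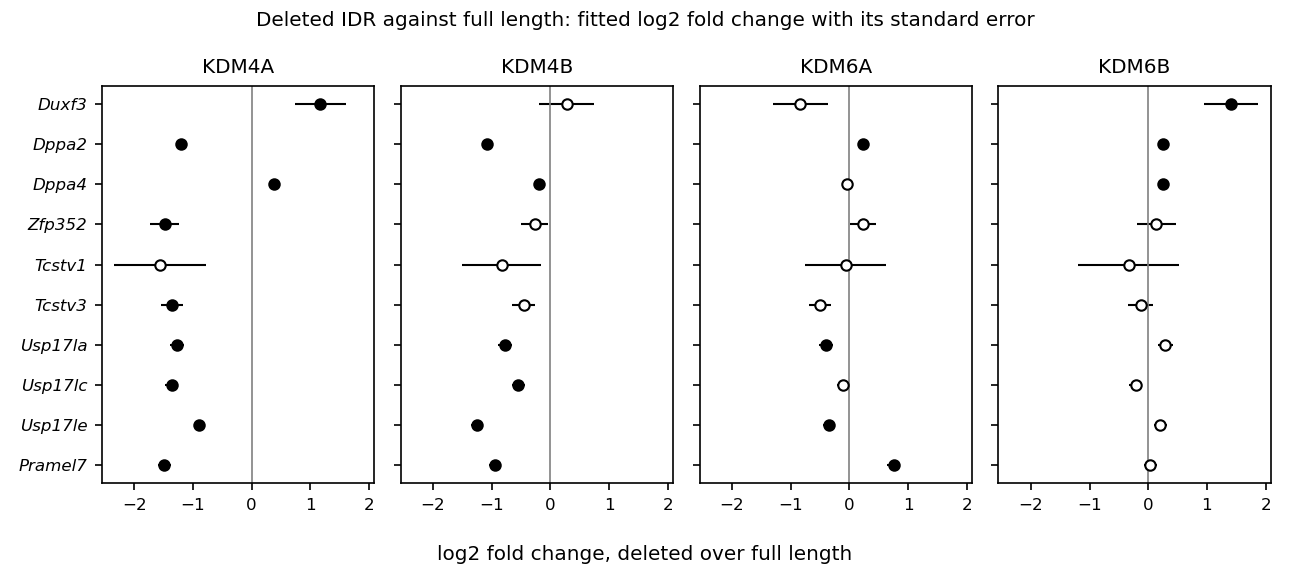
Fitted log2 fold change of IDR deleted over full length (horizontal axis) with its standard error for the 10 genes (vertical axis), 1 panel per demethylase; filled points passed an adjusted p of 0.05. In the KDM4A and KDM4B panels the filled points lie left of 0 except Duxf3 and Dppa4 for KDM4A, and in the KDM6B panel the filled points lie right of 0.

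For KDM4A, Duxf3 was called higher where most of the other genes were called lower, at only 11 to 57 reads in a library. It lies at chr10:58065801-58068497 (GRCm39, minus strand) in a tandem array, where reads that match several copies are not counted. With full-length KDM4A it was at 0.745 and 0.384 CPM and with the deleted form at 1.19 and 1.34 CPM. All 4 libraries are low, and the groups do not overlap. The difference was 1.17 ± 0.44 (adjusted p = 0.024), while 7 of the other genes fell in the same libraries. For KDM6B the levels were 0.412 and 0.248 CPM full length and 0.652 and 1.12 CPM deleted, a rise of 1.42 ± 0.46 (adjusted p = 0.024). Neither KDM4B (0.440 and 0.473 against 0.443 and 0.662 CPM; 0.28 ± 0.47, adjusted p = 0.70) nor KDM6A (0.677 and 0.542 against 0.402 and 0.288 CPM; -0.83 ± 0.47, adjusted p = 0.27) passed the test.

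Both rises of Duxf3 rest on single libraries and on the scaling. The KDM4A call was lost without replicate 1 of the deleted group (adjusted p = 0.0571), without its replicate 2 (0.0891) and without replicate 2 of the full-length group (log2 0.76, adjusted p = 0.257). The KDM6B call was lost without replicate 2 of the deleted group (log2 0.97, adjusted p = 0.297) or of the full-length group (1.11, 0.197). With ERCC scaling the values were 0.52 (adjusted p = 0.325) and 1.03 (adjusted p = 0.071).

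Dppa2 and Dppa4 are neighbours on chromosome 16 (Dppa2 at chr16:48124271-48140086 and Dppa4 at chr16:48104096-48114600, GRCm39, both plus strand). Both fell for KDM4B and both rose for KDM6B. Their calls went opposite ways only for KDM4A, where the direction of Dppa4 depended on the scaling. Dppa2 was at 46.5 and 44.9 CPM with full-length KDM4A and at 21.1 and 18.4 CPM with the deleted form, a fall of -1.21 ± 0.07 (adjusted p = 5.4e-18). With KDM4B it went from 67.4 and 67.9 CPM to 32.1 and 31.6 CPM, a fall of -1.09 ± 0.07 (adjusted p = 1.6e-16). The groups are far apart in both cases, and the 2 falls were not shown to differ (difference -0.12 ± 0.09, adjusted p = 0.36), although with ERCC scaling the difference was -0.59 (adjusted p = 1.27e-05).

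For the KDM6 enzymes Dppa2 rose by little. It was at 47.8 and 46.3 CPM with full-length KDM6A and 56.6 and 54.3 CPM with the deleted form (0.24 ± 0.06, adjusted p = 0.0070). With KDM6B it was at 24.6 and 22.9 CPM full length and 28.3 and 28.0 CPM deleted (0.25 ± 0.07, adjusted p = 0.0057). The KDM6A call was lost without replicate 1 of the deleted group (adjusted p = 0.0794) or replicate 2 of the full-length group (0.0835), and the KDM6B call without replicate 2 of the full-length group (0.095). Under ERCC scaling Dppa2 was at 0.02 for KDM6A and turned to -0.13 for KDM6B.

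Dppa4 had the narrowest range of the 10, with a ratio of 1.47 between its highest and lowest group means. It was at 59.2 and 63.3 CPM with full-length KDM4A and 80.4 and 80.1 CPM with the deleted form, a rise of 0.39 ± 0.06 (adjusted p = 1.4e-07) that turned to -0.26 with ERCC scaling. With KDM4B it fell by 0.20 ± 0.05 (adjusted p = 0.0031), from 70.5 and 73.3 CPM to 61.3 and 63.7 CPM. That call was lost without replicate 1 of the deleted group (adjusted p = 0.0531) or replicate 2 of the full-length group (0.0831). With KDM6A it was at 61.0 and 63.5 CPM and then 60.7 and 60.9 CPM (-0.03 ± 0.06, adjusted p = 0.77). With KDM6B it rose from 71.3 and 80.0 CPM to 88.4 and 90.7 CPM (0.24 ± 0.05, adjusted p = 9.3e-04), or -0.13 with ERCC scaling, and the call was lost without replicate 1 of the full-length group (adjusted p = 0.103).

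Zfp352 encodes a zinc finger protein of the 2-cell embryo and lies at chr4:90107057-90113939 (GRCm39, plus strand). Its level was 3.82 and 3.46 CPM with full-length KDM4A and 1.34 and 1.27 CPM with the deleted form, a fall of -1.48 ± 0.25 (adjusted p = 3.1e-06). With KDM4B it was 2.54 and 2.13 CPM full length and 1.69 and 2.19 CPM deleted, groups that overlap (-0.27 ± 0.23, adjusted p = 0.41). The KDM4A effect was the stronger by 1.21 ± 0.34 on the log2 scale (difference -1.21, adjusted p = 0.0053). With KDM6A it was 2.59 and 2.74 CPM against 3.40 and 2.90 CPM (0.24 ± 0.22, adjusted p = 0.57). In the KDM6B groups it was close to absent, at 0.347 and 0.519 CPM full length and 0.478 and 0.471 CPM deleted (0.13 ± 0.33, adjusted p = 0.84). Zfp352 had the widest range of the 10, with a ratio of 8.41 between full-length KDM4A and full-length KDM6B.

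Tcstv1 and Tcstv3 belong to a small family on chromosome 13 expressed in 2-cell embryos and 2-cell-like cells (Tcstv1 at chr13:120354924-120356321, minus strand, and Tcstv3 at chr13:120778414-120779714, plus strand, GRCm39). Their members are much alike, and reads that fit several were not counted. Tcstv3 was at 6.89 and 6.37 CPM with full-length KDM4A and 2.39 and 2.81 CPM with the deleted form, a fall of -1.35 ± 0.19 (adjusted p = 1.6e-07). With KDM4B it was at 3.49 and 4.31 CPM and then 2.78 and 2.89 CPM (-0.46 ± 0.19, adjusted p = 0.056). With KDM6A it was at 4.60 and 5.54 CPM and then 3.26 and 3.86 CPM (-0.50 ± 0.18, adjusted p = 0.054). Neither pair overlaps, and both missed the threshold. With the replicate number as a block both passed in edgeR, at -0.46 for KDM4B (adjusted p = 0.0484) and -0.51 for KDM6A (adjusted p = 0.0378). With KDM6B the libraries overlapped, at 1.69 and 2.21 CPM full length and 1.98 and 1.59 CPM deleted (-0.13 ± 0.21, adjusted p = 0.73).

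Tcstv1 passed the test for none of the 4 deletions. Its 14 and 31 reads with full-length KDM4A became 2 and 8 with the deleted form (0.326 and 0.627 against 0.0582 and 0.274 CPM), a difference of -1.56 ± 0.78 (adjusted p = 0.094). Without replicate 2 of the deleted group it was -2.97 and passed. With KDM4B it was at 0.269 and 0.868 CPM full length and 0.148 and 0.482 CPM deleted. With KDM6A it was at 0.338 and 0.428 CPM and then 0.246 and 0.480 CPM, and with KDM6B at 0.0867 and 0.203 CPM and then 0.130 and 0.0980 CPM. In all 3 the full-length and deleted libraries overlap. For KDM4B, KDM6A and KDM6B the differences were -0.83 ± 0.68, -0.06 ± 0.69 and -0.34 ± 0.86 (adjusted p = 0.37, 0.97 and 0.85), with errors too wide to show changes of the size seen for Tcstv3.

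The Usp17l genes encode ubiquitin-specific proteases of the USP17 (DUB) family, and all 3 lie on chromosome 7 of GRCm39: Usp17la at chr7:104506216-104511874 and Usp17lc at chr7:103064279-103069087 on the plus strand, Usp17le at chr7:104417256-104426677 on the minus strand. Reads were counted only at a mapping quality of at least 30. How alike the counted exons are was not tested, so the counts of these relatives are uncertain. All 3 fell with loss of the KDM4A IDR and of the KDM4B IDR. For KDM4A, Usp17la went from 18.1 and 18.3 CPM to 7.48 and 7.67 CPM (-1.27 ± 0.12, adjusted p = 2.0e-11). Usp17lc went from 34.2 and 29.0 CPM to 13.4 and 11 CPM (-1.36 ± 0.10, adjusted p = 4.2e-14). Usp17le went from 32.1 and 30.8 CPM to 15.8 and 18.2 CPM (-0.89 ± 0.10, adjusted p = 6.0e-10). In each the deleted libraries are well below the full-length ones.

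For KDM4B the order of the 3 changed. Usp17le fell most, from 25.9 and 25.8 CPM to 11.5 and 10.2 CPM (-1.25 ± 0.10, adjusted p = 4.1e-13). Usp17la went from 9.57 and 10.3 CPM to 6.07 and 5.54 CPM (-0.78 ± 0.12, adjusted p = 2.6e-06), and Usp17lc from 19.3 and 17.9 CPM to 12.9 and 12.7 CPM (-0.54 ± 0.10, adjusted p = 4.4e-05). Usp17lc fell further with KDM4A than with KDM4B by 0.82 ± 0.15 on the log2 scale (difference -0.82, adjusted p = 2.3e-05). For Usp17le the difference had the other sign (0.36 ± 0.14, adjusted p = 0.044). It was -0.10 with ERCC scaling, and the call was lost in 6 of the 8 fits that left out a library.

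With KDM6A, Usp17la and Usp17le fell by little. Usp17la was at 11.5 and 9.39 CPM full length and 8.49 and 7.52 CPM deleted (-0.39 ± 0.12, adjusted p = 0.019). Usp17le was at 20.7 and 17.4 CPM and then 15.4 and 14.6 CPM (-0.35 ± 0.10, adjusted p = 0.0097). Both calls were lost without replicate 1 of the full-length group (adjusted p = 0.398 and 0.295) or replicate 2 of the deleted group (0.22 and 0.0944). Usp17lc was at 21.6 and 18 CPM and then 17.9 and 18.8 CPM (-0.11 ± 0.10, adjusted p = 0.54). With KDM6B none of the 3 passed: Usp17la was at 4.12 and 4.51 CPM full length and 5.50 and 5.08 CPM deleted (0.29 ± 0.13, adjusted p = 0.11). Usp17lc was at 7.56 and 7.54 CPM and then 6.59 and 6.41 CPM (-0.22 ± 0.11, adjusted p = 0.18), and Usp17le at 8.77 and 7.54 CPM and then 9.74 and 9.14 CPM (0.21 ± 0.10, adjusted p = 0.16).

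Pramel7, which supports naive pluripotency in ES cells, lies at chr2:87319431-87327437 (GRCm39, minus strand). It was at 18.1 and 16.6 CPM with full-length KDM4A and 6.29 and 6.09 CPM with the deleted form, a fall of -1.48 ± 0.11 (adjusted p = 4.1e-14). With KDM4B it fell from 19.7 and 18.9 CPM to 10.5 and 9.57 CPM (-0.94 ± 0.11, adjusted p = 2.7e-09). With KDM6A it rose from 11.3 and 11.8 CPM to 19.2 and 19.9 CPM (0.75 ± 0.11, adjusted p = 1.1e-06), and at 0.54 it was also the 1 gene of the 10 that rose there with ERCC scaling. With KDM6B it was at 6.43 and 6.48 CPM and then 5.80 and 7.43 CPM (0.04 ± 0.11, adjusted p = 0.87). Among the 4 genes that passed for KDM6A, Pramel7 was the 1 that still passed without any single library of that contrast, at 0.72 to 0.79.

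Tested directly, the KDM4A and KDM4B deletion effects differed for 7 of the 10 genes, 5 with a lower value for KDM4A and 2 with a higher one, where 31.1% of all genes differed. The KDM6A and KDM6B effects differed for 5 of the 10, where 21.8% of all genes did. Averaged over the 4 enzymes, the deletion lowered 7 of the 10 and raised 1 (Dppa4, 0.10 ± 0.03, adjusted p = 0.0032), where 42.1% of all genes passed, with 21.1% of all genes up and 21% down. With ERCC scaling the mean effect lowered 9 and raised 0, at a median of -0.85 for the 10 genes and -0.37 for all genes.

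The full-length groups already differed from each other. Of the 10 genes, 8 differed between full-length KDM6A and full-length KDM6B, 7 of them higher with KDM6A and 1 lower, where 50.7% of all genes passed the test and 25.7% were higher. The median difference was 1.25 for the 10 genes and 0.08 for all genes. Zfp352 differed most at 2.62 ± 0.28 (adjusted p = 3.0e-10), or 6.14-fold. Usp17lc, Tcstv3, Usp17la, Usp17le, Dppa2 and Pramel7 were higher by 1.39, 1.37, 1.28, 1.23, 0.99 and 0.84. Dppa4 was lower by 0.28 ± 0.05 (log2 fold change -0.28, adjusted p = 3.8e-05), and Duxf3 (0.88 ± 0.48, adjusted p = 0.13) and Tcstv1 (1.39 ± 0.77, adjusted p = 0.13) did not pass. With ERCC scaling all 10 were higher with KDM6A, Dppa4 included, while the median of all genes was 1.00.

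Between full-length KDM4A and full-length KDM4B, 7 of the 10 genes differed, 5 higher with KDM4A and 2 lower, where 24.3% of all genes passed. Usp17la, Tcstv3, Usp17lc, Zfp352 and Usp17le were higher by 0.87, 0.77, 0.76, 0.64 and 0.28, and Dppa2 and Dppa4 were lower at -0.57 and -0.23. With ERCC scaling 2 were higher and 3 lower, and Usp17le turned to -0.17. The median was then -0.16 for the 10 genes and -0.45 for all genes. The Zfp352 and Usp17le calls were each lost without any 1 of the 4 libraries, the Dppa4 call without replicate 1 of KDM4A and the Tcstv3 call without replicate 1 of KDM4B.

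The highest and lowest groups were shared by several of the genes. Full-length KDM4A was highest for 5 of the 10 (Zfp352, Tcstv3, Usp17la, Usp17lc and Usp17le), full-length KDM4B for Dppa2 and Tcstv1, deleted KDM6A for Pramel7, deleted KDM4A for Duxf3 and deleted KDM6B for Dppa4. The lowest mean was in full-length KDM6B for 4 genes and in deleted KDM6B for 3. Deleted KDM4A was lowest for Dppa2 and Pramel7, and deleted KDM6A for Dppa4. Neighbours in the order often overlapped: for Tcstv1 all 7 neighbouring pairs of groups did, for Duxf3 5, for Dppa4 4, and for Dppa2 and Usp17le 1 each. For Zfp352 the order ran from full-length KDM4A (3.64 CPM) through deleted KDM6A (3.15), full-length KDM6A (2.67), full-length KDM4B (2.33), deleted KDM4B (1.94) and deleted KDM4A (1.30) to the KDM6B groups (0.474 deleted and 0.433 full length). In that order full-length and deleted KDM4B overlapped, as did the KDM6B pair.

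**Figure D3:**
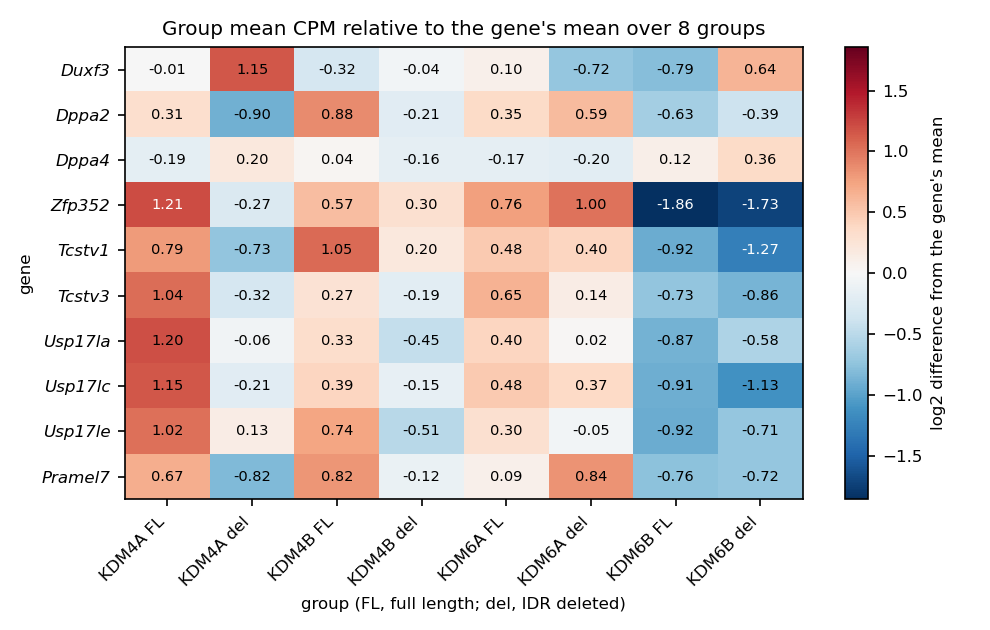
Log2 difference of each group's mean CPM from the mean of its 8 log2 group means (colour and printed value), genes in rows and groups in columns. Dppa2, Zfp352, Tcstv1, Tcstv3, the Usp17l genes and Pramel7 are below their mean in both KDM6B columns and above it in full-length KDM4A. Duxf3 and Dppa4 are above theirs in deleted KDM4A and deleted KDM6B. Of the other genes, Usp17le is also above its mean in deleted KDM4A (0.13).

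Duxf3 and Dppa4 also stood apart over the 16 libraries. Against the mean standardized log2 CPM of the 10 genes, which contains each of them, Pearson's r was 0.94 for Usp17le and Usp17la, 0.93 for Usp17lc, 0.92 for Tcstv3, 0.90 for Zfp352, 0.82 for Pramel7, 0.76 for Dppa2 and 0.75 for Tcstv1. It was -0.02 for Duxf3 and -0.58 for Dppa4. Genes outside the set were ranked by the same measure, leaving out Zscan4 genes, gene-model names such as Gm genes, and genes without a symbol. Among those ranked, the most like this mean were Trpa1 (0.953), Nat8f2 (0.952), Ino80d (0.95), Tdpoz3 (0.949) and Stk32c (0.948). Of these, Nat8f2 (formerly Cml2) and Tdpoz3 are themselves on the list of other 2-cell genes. Tdpoz3 fell by 2.13 ± 0.26 with KDM4A and by 1.65 ± 0.25 with KDM4B (adjusted p = 4.9e-09 and 1.0e-06), and Trpa1, an ion channel gene, by 0.81 ± 0.10 and 0.98 ± 0.10. The libraries share depth and group, so these correlations are given as a description.

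Other genes of the 2-cell programme were counted beside the 10. All 6 genes of the Zscan4 cluster, which encodes 2-cell zinc finger proteins, fell for KDM4A, KDM4B and KDM6A (medians -1.89, -1.62 and -0.30), and 4 rose for KDM6B (median 0.22, or -0.17 and 0 calls with ERCC scaling). Zscan4d stood at 71.8 ± 1.05 CPM with full-length KDM4A and 13.2 ± 1.07 CPM with the deleted form (SD, n = 2), a fold change of -2.44 ± 0.08 (adjusted p = 7.6e-25). Of 36 further 2-cell genes with enough reads (45 in the table), 2 rose and 25 fell for KDM4A and 1 rose and 17 fell for KDM4B, at medians of -1.13 and -0.60. For KDM6A 1 rose and 5 fell and for KDM6B 2 rose and 3 fell (medians -0.10 and -0.01). The shares of all genes that passed were 17% and 20.6%, so these counts do not stand out. With ERCC scaling 0 rose and 12 fell, and 0 rose and 17 fell. Of all 31057 genes, 7140 and 13293 fell with that scaling. The 4 further 2-cell genes with the smallest joint p were Gm5662, Gm12794, Gm2016 and Gm2022. They fell by 1.52, 1.48, 1.55 and 1.87 for KDM4A and by 1.01, 1.48, 1.14 and 0.98 for KDM4B. The members, Usp17lb and Usp17ld among the further genes, and the Zscan4 and Gm families hold near-identical copies, so neighbouring genes are not independent counts.

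Genes listed as activators of Dux did not move one way. Pias4 is counted among them below, although its protein is reported to oppose DPPA2 and DPPA4. Of 15 tested, 9 rose and 6 fell for KDM4A and 5 rose and 6 fell for KDM4B, at medians of 0.23 and -0.07. With ERCC scaling the counts were 5 and 9, and 4 and 9. Dppa3, a maternal factor of the early embryo, rose for KDM4A (5.44 ± 0.663 to 12.7 ± 0.221 CPM; 1.22 ± 0.14, adjusted p = 1.5e-09) and for KDM4B (1.47 ± 0.0308 to 3.35 ± 0.800 CPM; 1.19 ± 0.17, adjusted p = 6.6e-07). It fell by 0.91 ± 0.17 for KDM6A and by 0.56 ± 0.13 for KDM6B, and all 4 directions held with ERCC scaling. Pias4, a SUMO ligase gene, rose by 1.12 ± 0.06 for KDM4A, Mlxipl rose by 0.84 ± 0.05 for KDM4A and 0.55 ± 0.05 for KDM4B, and the H3K4 demethylase gene Kdm5b fell by 0.64 ± 0.03 and 0.27 ± 0.03. Zscan4c is in both this list and the Zscan4 cluster.

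Of 43 genes reported to repress Dux or MERVL, 29 rose and 6 fell for KDM4A (median 0.29), and 11 rose and 11 fell for KDM4B (median -0.02). This direction depended on the scaling: with ERCC scaling 2 rose and 35 fell for KDM4A (median -0.36, against -0.70 for all genes). With ERCC scaling 1 rose and 21 fell for KDM4B. For KDM6A 8 rose and 5 fell, and for KDM6B 8 rose and 4 fell, against 2 and 21, and 0 and 39, with ERCC scaling. Of all 31057 genes, 17766, 8573, 7140 and 13293 fell with that scaling for KDM4A, KDM4B, KDM6A and KDM6B. Tet1, which oxidizes methylated DNA, fell by 0.81 ± 0.03 and 0.54 ± 0.03 with KDM4A and KDM4B, and Atf7ip, a partner of the H3K9 methyltransferase SETDB1, by 0.64 ± 0.04 and 1.14 ± 0.04. The SUMO-activating enzyme gene Uba2 rose by 0.61 ± 0.04 and Mga, of a Polycomb complex, by 0.43 ± 0.03 with KDM4A (-0.04 and -0.23 with ERCC scaling).

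ERVL copies moved with the 2-cell genes in the KDM4 groups. Reads on 382 copies of at least 5 kb outside genes amounted to 3953 ± 104 CPM with full-length KDM4A and 1472 ± 53.1 CPM with the deleted form (SD, n = 2), relative to all gene reads and here without TMM scaling. With KDM4B they amounted to 3428 ± 158 and 1920 ± 57.1, with KDM6A to 3357 ± 53.4 and 3612 ± 79.0, and with KDM6B to 878 ± 59.0 and 739 ± 18.4. The log2 differences were -1.43, -0.84, 0.11 and -0.25. Their mean over the 4 enzymes was -0.60, with p = 0.0123 in an exact 2-sided permutation test within enzymes (1296 labelings, smallest possible p 0.00154). For 1 enzyme alone, 2 libraries against 2 cannot give an exact p below 0.333. As for Zfp352, full-length KDM4A was the highest group and the KDM6B groups were the lowest.

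**Figure D4:**
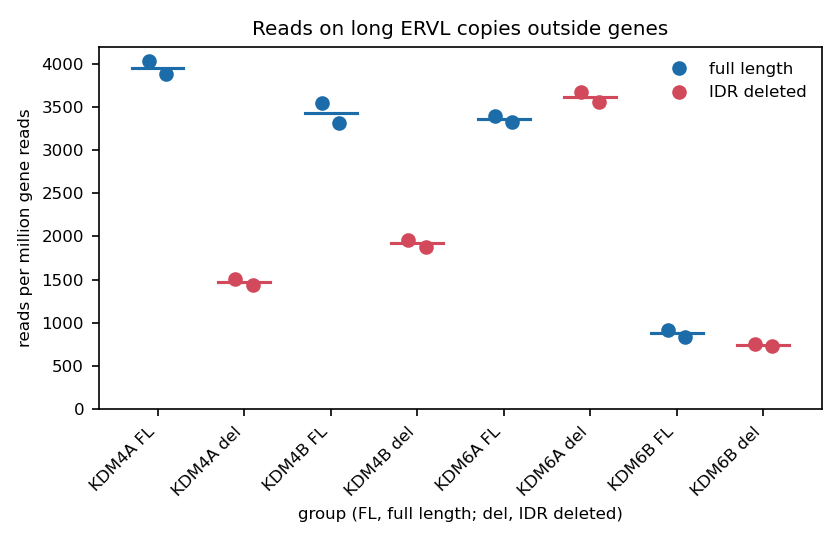
Reads on 382 ERVL copies of 5 kb or longer outside genes, as a counts-per-million value of gene reads (vertical axis, from 0), in each library by group; points are libraries, bars are means of 2, blue is full length and red is IDR deleted. Deleted KDM4A and deleted KDM4B lie below their full-length forms, and the 4 KDM6B libraries are the lowest.

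The annotated starts of Zfp352, Tcstv1 and Tcstv3 each lie within an ERVL copy, at chr4:90106944-90107317, chr13:120356140-120356473 and chr13:120778259-120778579 (GRCm39). The copy at Tcstv3 had 109 and 102 reads with full-length KDM4A and 27 and 15 with the deleted form. With KDM4B it had 52 and 60 reads and then 53 and 58, with KDM6A 91 and 49 and then 52 and 70, and with KDM6B 25 and 32 and then 44 and 42. Relative to all gene reads the Tcstv3 copy was at 2.59 and 2.11 CPM with full-length KDM4A and 0.709 and 0.458 CPM with the deleted form. For KDM4B these values were 1.32 and 1.64 against 1.20 and 1.25 CPM, and for KDM6A 2.18 and 1.5 against 1.21 and 1.40 CPM. In all 3 both deleted libraries lay below both full-length ones, with no test made, and for KDM6B they lay above (0.511 and 0.680 against 0.893 and 0.765 CPM). The copy at Zfp352 had 21 and 13 reads with full-length KDM4A and 3 and 1 with the deleted form, and 0 to 2 reads in each KDM6B library. With KDM4B it had 11 and 6 reads and then 14 and 8, and with KDM6A 11 and 9 and then 9 and 20, so those forms overlap. The copy at Tcstv1 had 9 and 12 reads with full-length KDM4A and 1 and 9 with the deleted form, and 0 to 7 reads in the libraries of the other enzymes, too few to compare. These copies overlap exons, so the same read can stand in both tables and the counts do not add to those of the genes. None of the other 7 genes has an ERVL copy over its start.

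Markers of other cell types moved in the same comparisons. Summed over 10 primitive endoderm markers the level was 91.5 to 97.5 RPKM with full-length KDM4A and 128 to 130 RPKM with the deleted form, and over 10 trophectoderm markers 27.7 to 28.4 and 41.1 to 42.3 RPKM. For KDM4A 7 of 10 primitive endoderm markers rose and 1 fell. Of 9 tested trophectoderm markers 7 rose and 0 fell, where 24.6% of all genes rose and 25.9% fell. With ERCC scaling 5 primitive endoderm markers rose and 2 fell, and 4 trophectoderm markers rose and 2 fell. For KDM4B, where 6 of the 2-cell genes fell, 5 of 10 primitive endoderm markers rose and 1 fell (median 0.67), and 6 of 9 trophectoderm markers rose and 1 fell (median 0.80). With ERCC scaling 3 and 5 of them rose, and 1 of each list fell. Without it 18.6% of all genes rose and 17.6% fell for KDM4B. Of 8 tested neural markers, 5 rose and 1 fell for KDM4A, and 0 rose and 4 fell for KDM4B. The KDM4B sums were 82.9 to 86.6 RPKM full length and 90.0 to 94.0 RPKM deleted for primitive endoderm, and 23.3 to 24.8 and 25.5 to 26.3 RPKM for trophectoderm. Both sums were also high in the KDM6B groups, at 125 to 150 and 45.6 to 48.6 RPKM, where most of the 2-cell genes were lowest. ES cell markers summed to 813 to 1526 RPKM over all libraries, 11 fibroblast markers to 1.81 to 6.33 RPKM and 9 neural markers to 19.3 to 38.7 RPKM. None of these markers was at 0 reads in all 16 libraries. Their part in the changes of the 2-cell genes was not tested.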

How the data were processed

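Chromatin-associated RNA was sequenced in 16 libraries. Read counts per gene were made by the authors with featureCounts 2.0.3, per the file headers: reads with a mapping quality of at least 30, strand ignored, each read of a pair counted, reads over several genes left out. The submitters' processing notes name HISAT2 and GRCm39. Counts per repeat copy were deposited by the authors in the same way. Symbols came from GENCODE M21 by Ensembl identifier (51948 matched, 4993 did not). The 92 ERCC and 2 other control rows entered neither library sizes nor tests.

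The counts were fitted in edgeR 4.0.16 (R 4.3.3) by its quasi-likelihood test on all 16 libraries and 8 groups, with TMM scaling, a minimum count of 10 in filterByExpr, 8 residual degrees of freedom and Benjamini-Hochberg adjustment over 31057 genes at 0.05. The step was tested on simulated data. Standard errors were derived from each fold change and its F statistic. The ERVL value was tested by exact permutation. Figures and promoter matches used Python 3.11.15, matplotlib 3.10.9 and Biopython 1.88.

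The members and lists were chosen with earlier results of these data known. Named beside the 10 genes and the 4 demethylases were, per list, up to 4 genes past the threshold with the smallest p of the joint test. Also named were the 5 genes most correlated with the members' mean, leaving out Zscan4 genes, gene-model names and genes without a symbol. Alternatives were median-ratio and ERCC scaling, DESeq2 1.42.0, no filter, fewer libraries in the fit, a replicate block and each library left out.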

Additional observations from a re-analysis of the deposited data

Results flagged for a closer look

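For 12 differences, the deletion effect of one enzyme differed from that of its relative by a direct test of the difference in edgeR (log2 scale, adjusted p under 0.05). Between KDM4A and KDM4B (KDM4A minus KDM4B) these were Dppa4 at 0.59, Zfp352 at -1.21, Tcstv3 at -0.90, Usp17la at -0.49, Usp17lc at -0.82, Usp17le at 0.36 and Pramel7 at -0.54. The Usp17lc value passed without any single library. The Usp17la call was lost without either library of deleted KDM4A, either of full-length KDM4A, or replicate 1 of deleted or full-length KDM4B (adjusted p = 0.0544 to 0.117). The Usp17le call was lost without replicate 2 of deleted KDM4A (0.211), either library of full-length KDM4A (0.0667 and 0.126), replicate 2 of deleted KDM4B (0.213) or either library of full-length KDM4B (0.104 and 0.109). The Tcstv3 call was lost without replicate 1 of full-length KDM4B (-0.77, adjusted p = 0.0558), and the Dppa4 call with ERCC scaling (0.13, adjusted p = 0.307).

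Between KDM6A and KDM6B (KDM6A minus KDM6B) these were Duxf3 at -2.25, Dppa4 at -0.28, Usp17la at -0.68, Usp17le at -0.56 and Pramel7 at 0.72. For Duxf3 the call was lost without replicate 2 of deleted KDM6B (-1.80, adjusted p = 0.0928), replicate 2 of full-length KDM6B (-1.94, 0.0592), replicate 2 of deleted KDM6A (-2.02, 0.0547) or replicate 1 of full-length KDM6A (-2.07, 0.0562). Without replicate 1 of full-length KDM6A, Usp17la was at -0.52 (adjusted p = 0.0598) and Usp17le at -0.42 (0.0558). The Dppa4 call was lost without replicate 2 of deleted KDM6B (0.0503) or replicate 1 of full-length KDM6B (0.117), and with ERCC scaling (-0.11, adjusted p = 0.436). With ERCC scaling the Usp17le difference was -0.39 (adjusted p = 0.0631).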

How the results depend on the processing

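ERCC scaling changed most. It gave 13954 called genes for KDM6B (661 higher, 13293 lower) against 6407, and moved the share of calls that were higher to 7.61%, 25.1%, 5.84% and 4.74% for KDM4A, KDM4B, KDM6A and KDM6B, from 48.7%, 51.5%, 49.0% and 47.9%. It called 3 of the 10 genes, not 5, for the difference between KDM6A and KDM6B. It reversed Dppa4 for KDM4A (-0.26) and, for KDM6B, Dppa2 (-0.13), Dppa4 (-0.13), Zfp352 (-0.24), Usp17la (-0.085), Usp17le (-0.17) and Pramel7 (-0.34). The cause was not tested.

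Leaving out 1 library at a time gave 8 to 9 called genes of the 10 for KDM4A, 5 to 7 for KDM4B, 2 to 3 for KDM6A and 1 to 3 for KDM6B. Over all genes it called 3490 to 3947 for KDM6A and 4078 to 4928 for KDM6B. It called 4 to 6 of the 10 for KDM4A against KDM4B effects, 2 to 5 for KDM6A against KDM6B effects and 4 to 5 between full-length KDM4A and KDM4B. Changes that had not passed crossed 0: for KDM4B Duxf3 (-0.040 to 0.54) and Tcstv1 (-1.91 to 0.25), for KDM6A Tcstv1 (-0.63 to 0.33) and Usp17lc (-0.23 to 0.027), and for KDM6B Zfp352 (-0.13 to 0.45), Tcstv1 (-0.82 to 0.38), Tcstv3 (-0.32 to 0.077) and Pramel7 (-0.16 to 0.21).

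Replicate numbers did not pair all libraries: same-numbered deviations correlated over 0.1 in 15 of 28 pairs of groups. These were all 15 pairs among the KDM4A, KDM4B and KDM6A groups (0.103 to 0.172), whereas the 13 pairs with a KDM6B group lay between -0.0026 and 0.0338. With the replicate block, Tcstv3 also passed for KDM4B (-0.46, adjusted p = 0.0484) and KDM6A (-0.51, adjusted p = 0.0378) in edgeR, and the ERVL difference had an exact p of 0.0391. DESeq2 called 9, 6, 4 and 3 of the 10 for the 4 enzymes, as edgeR did. Low read numbers limit Duxf3 and Tcstv1.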
